A study of Mus musculus with 27 samples.

Results

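The liver genes of complement and coagulation were followed across 4 diet groups of old mice. The set was a list of 38 gene symbols chosen by name, with earlier results of these data known. It covers clotting factors, their inhibitors, fibrinolysis proteins and complement components, and 18820 genes had a single-symbol transcript cluster on the array. Of the 38, 34 had such a cluster and 30 were among the 13993 genes tested. F2, Plg, Serpinc1 and Kng1 were measured but varied too little over the mice to pass the filter (an interquartile range above 0.1). Klkb1 and Masp2 lie only on clusters that carry several symbols, and for C3 and Cpb2 no cluster was listed, so these 4 genes were not analysed here.

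Livers were taken at 28 months of age from 27 C57BL/6J males, and the RNA of each was put on its own Affymetrix Mouse Gene 1.1 ST array. Of these mice, 8 ate the control diet AIN-93W (C), 5 were kept on 30% calorie restriction (CR), 7 ate the medium-fat diet (MF, 25% of energy as fat), and 7 were restricted until 24 months of age and then moved to the MF diet for 4 months (CR-MF). C and MF mice ate ad libitum, as did CR-MF mice after the switch, once their food had been raised in weekly steps. All mice were fasted for 4 h, given 400 µl of 0.5% carboxymethyl cellulose by gavage and fasted for another 6 h. Only the CR mice got part of their daily portion shortly before the fast, so restriction and this last meal cannot be told apart. Values are log2 intensities, on which a difference of 1 is a doubling of the intensity on the array, and levels of different genes are not compared because probes differ. Summed intensity of the 9 hepatocyte markers with a value (of 10 listed) lay between 79186 and 92341. RNA amount per cell and number of cells of a type cannot be told apart in whole liver.

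Hepatocytes make most of the clotting factors and complement proteins of plasma. In coagulation, serine proteases activate each other in turn until thrombin converts fibrinogen to fibrin, while protein C, protein S, antithrombin and other serpins hold the cascade back and plasmin dissolves the clot. In complement, the lectin, classical and alternative routes meet at C3, after which C5 (encoded by Hc in the mouse) joins C6, C7, C8 and several copies of C9 in the membrane attack complex, a pore in the target membrane. C8 is built from an alpha, a beta and a gamma chain, encoded by C8a, C8b and C8g.

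Few of the 30 genes differed between diets. Between MF and CR mice, F12 was lower and C4bp was higher in MF. Between CR-MF and MF mice, which ate the same diet at the end, Proc and C8b were higher in CR-MF. No member passed an adjusted p of 0.05 in the other 4 comparisons. The widest separations in mean were in the terminal complement genes C6, C8a, C8b and C9, whose means were highest in CR-MF mice and whose values spread most widely in MF mice.

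**Figure D1:**
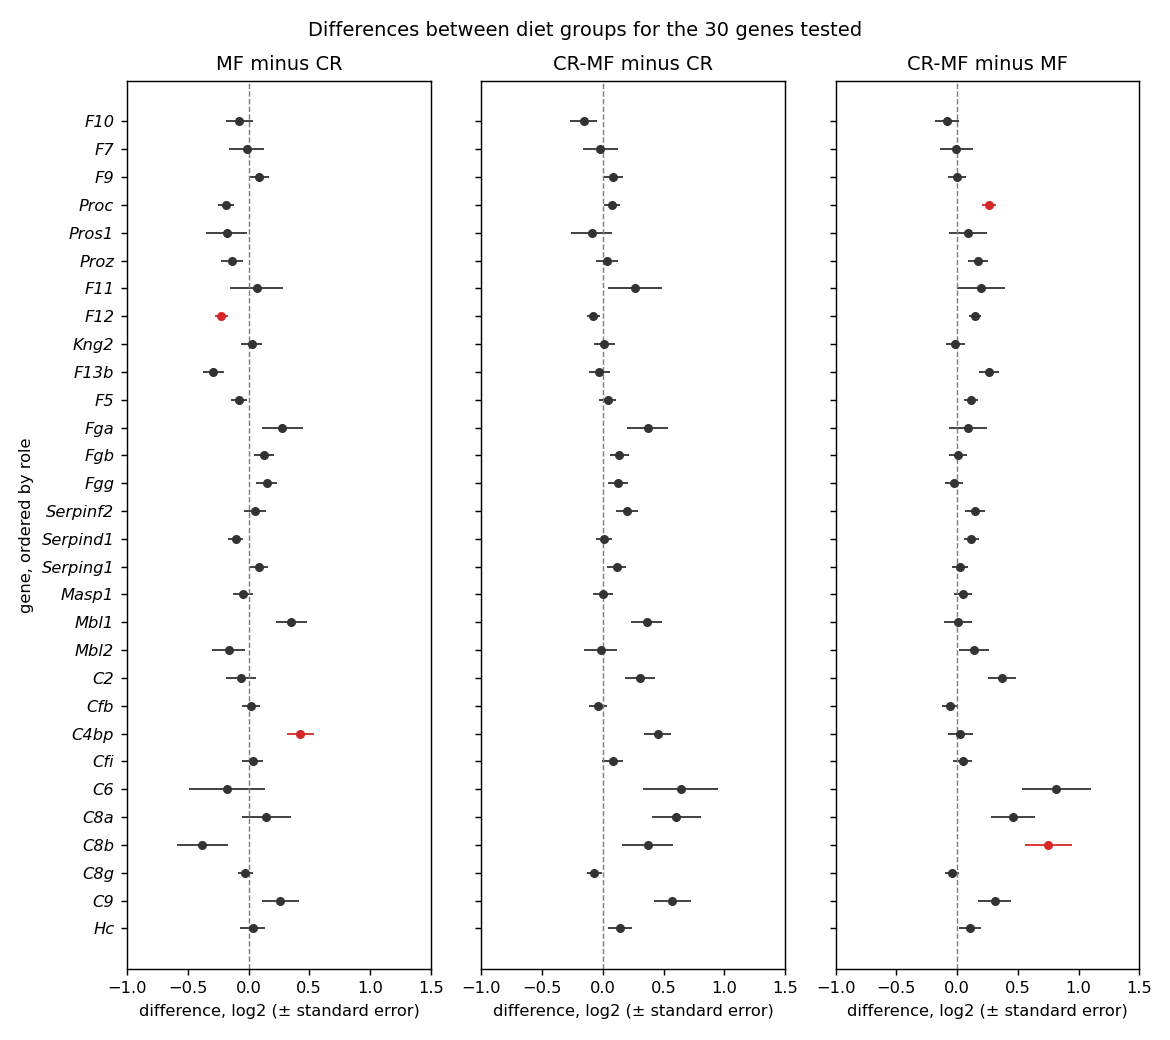
Differences between group means (horizontal axis, log2, with standard errors of the limma fit) for the 30 genes tested, ordered by role from vitamin K-dependent factors at the top to terminal complement at the bottom, in 3 comparisons. Red points have an adjusted p under 0.05: F12 and C4bp for MF minus CR, Proc and C8b for CR-MF minus MF, and none for CR-MF minus CR.

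Promoters of C8b, F12 and C4bp, which differed between diets, are shown with the matches to liver-factor motifs they hold. That of C8a, which was not called, is set beside its partner C8b, and that of Fga is shown because it alone held matches to a pair of the motifs. They span 250 bases before to 50 bases after the start site in RefSeq (GRCm38.p6), 5′ to 3′ on the strand of the gene. The C8b promoter is chr4:104766067-104766366 (plus strand), that of its neighbor C8a on the opposite strand is chr4:104876349-104876648 (minus strand), that of F12 is chr13:55426755-55427054 (minus strand), that of C4bp is chr1:130661569-130661868 (minus strand) and that of Fga is chr3:83025903-83026202 (plus strand). Capitals mark matches to an HNF1 motif (GTTAATNAT) or a STAT motif (TTCNNNGAA), searched on both strands.
C8b: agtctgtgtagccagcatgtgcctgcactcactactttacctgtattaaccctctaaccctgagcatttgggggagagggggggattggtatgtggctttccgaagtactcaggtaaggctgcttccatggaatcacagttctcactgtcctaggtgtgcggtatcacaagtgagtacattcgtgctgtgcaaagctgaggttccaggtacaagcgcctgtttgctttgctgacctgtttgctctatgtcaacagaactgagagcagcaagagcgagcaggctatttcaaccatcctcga
C8a: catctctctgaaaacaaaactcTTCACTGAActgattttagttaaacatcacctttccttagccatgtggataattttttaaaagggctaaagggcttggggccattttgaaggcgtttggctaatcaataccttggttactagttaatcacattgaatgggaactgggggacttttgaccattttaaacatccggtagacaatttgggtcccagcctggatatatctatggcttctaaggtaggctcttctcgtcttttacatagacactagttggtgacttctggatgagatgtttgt
F12: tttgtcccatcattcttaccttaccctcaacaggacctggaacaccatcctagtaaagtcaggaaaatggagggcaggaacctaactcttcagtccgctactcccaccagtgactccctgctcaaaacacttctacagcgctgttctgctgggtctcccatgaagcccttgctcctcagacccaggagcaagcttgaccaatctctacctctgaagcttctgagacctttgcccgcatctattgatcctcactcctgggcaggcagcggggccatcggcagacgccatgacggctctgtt
C4bp: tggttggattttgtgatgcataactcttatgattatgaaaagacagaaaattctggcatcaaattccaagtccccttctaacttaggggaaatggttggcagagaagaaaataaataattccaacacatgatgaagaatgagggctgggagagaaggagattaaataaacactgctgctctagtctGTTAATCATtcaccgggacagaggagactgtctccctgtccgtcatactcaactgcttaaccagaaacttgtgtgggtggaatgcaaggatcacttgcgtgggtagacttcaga
Fga: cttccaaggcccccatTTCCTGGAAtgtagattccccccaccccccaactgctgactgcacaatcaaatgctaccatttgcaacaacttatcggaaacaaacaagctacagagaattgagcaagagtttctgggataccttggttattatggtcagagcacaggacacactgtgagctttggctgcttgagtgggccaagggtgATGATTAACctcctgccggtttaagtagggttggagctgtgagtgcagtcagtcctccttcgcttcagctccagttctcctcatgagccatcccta
The match in C4bp (GTTAATCAT) is to the HNF1 motif and begins at position -64 from the start site. The match in C8a (TTCACTGAA) is to the STAT motif, at -228. Fga holds an HNF1 match on the reverse strand (ATGATTAAC) at -46 and a STAT match (TTCCTGGAA) at -234, which do not overlap. The C8b and F12 windows hold neither. HNF1 and HNF4 are transcription factors of hepatocytes, C/EBP factors act there too, and STAT3 carries the signal of interleukin-6.

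The table gave 31 promoters for 30 of the 38 genes. Those of Proc, C2, Cfb, Kng1, Masp1, Plg, Serping1 and Cfi were not in it. The HNF1 motif was in 4 of the 31 (12.9%; C4bp, F13b, Fga and Hc), and in 0.801% of all 32851 promoters. The STAT motif was in 6 (19.4%; C8a, F9, Fga, Fgb, Masp2 and Pros1), against 8.30% of all promoters. An HNF4 motif (CAAAGTCCA) and a C/EBP motif (TTGCGCAA) were in 0 of the 31, and in 0.475% and 0.183% of all promoters.

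Terminal complement was the role group with the largest median differences between CR-MF and the other groups. C8b, the beta chain that docks C8 onto the growing complex, rose in CR-MF relative to MF mice. The 7 CR-MF mice had log2 levels of C8b between 11.43 and 12.24 (median 11.98), and the 7 MF mice between 10.60 and 11.999 (median 11.06). The groups overlapped, because 2 MF mice (C4_1 and C4_9, at 11.999 and 11.86) lay among the CR-MF values while 3 others (C4_5, C4_11 and C4_15) lay at 10.60 to 10.64, below every other mouse in the study. The difference in means was 0.75 (standard error 0.19, 1.68-fold), with an adjusted p of 0.0427 in limma over the 13993 genes. Of the 30 members tested, 2 (6.67%) passed in this comparison, both higher in CR-MF, beside 1.44% of all genes (0.550% higher and 0.893% lower in CR-MF).

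In the remaining groups C8b lay between 10.93 and 11.75 (median 11.35) in the 8 C mice, and the 5 CR mice had 11.22, 11.39, 11.46, 11.81 and 11.86. CR mice thus overlapped with both C and CR-MF mice, and the difference of CR-MF from CR was 0.37 (95% interval -0.06 to 0.80, adjusted p = 0.498 in limma). Plates and well rows of the arrays were inferred from codes in the array names. Within these plates, the difference of CR-MF from MF was 0.58 (5 mice per group), 0.81 and 1.54 (1 mouse per group each). With 1 mouse left out at a time, the difference stayed between 0.66 and 0.89. The call was lost, with the adjusted p reaching 0.105, without any one of C4_5, C4_7, C4_11, C4_15, BC4_1, BC4_5, BC4_9, BC4_11 or BC4_13. All CR-MF arrays lay in 1 well row (H) that held no other group, so group and row cannot be told apart. The C arrays lay only in row F and the MF arrays only in row G, while CR arrays lay in both.

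**Figure D2:**
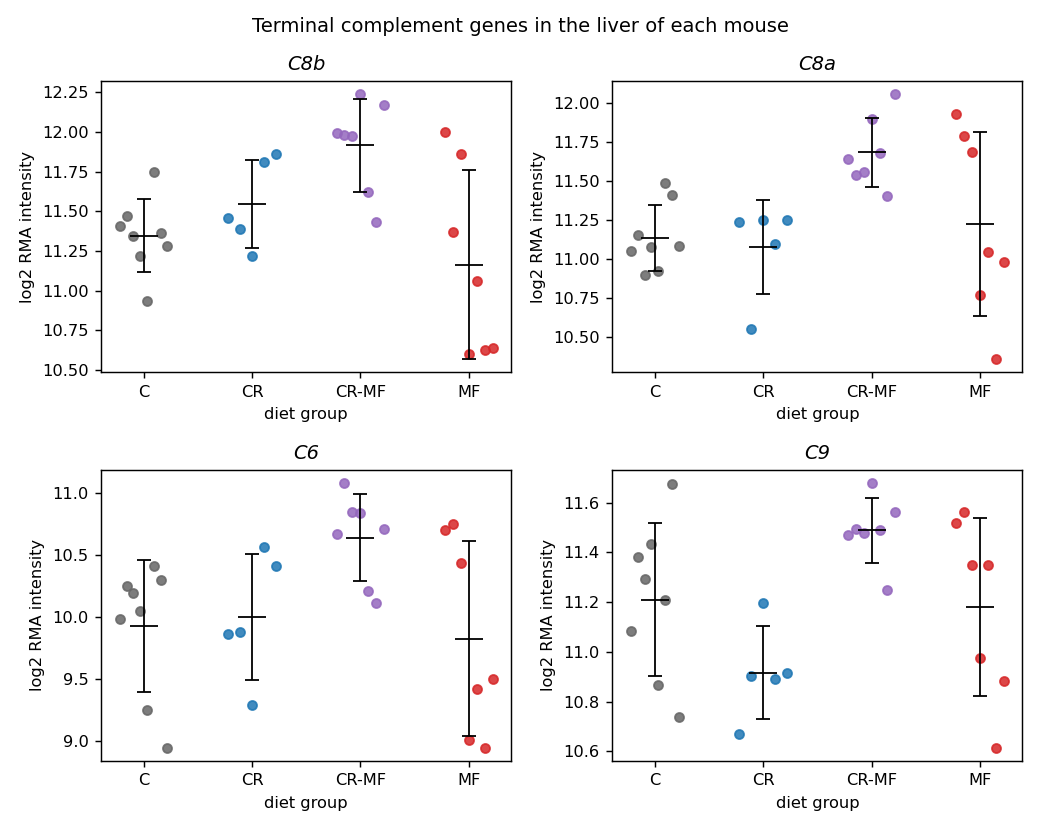
Log2 RMA intensity of C8b, C8a, C6 and C9 (vertical axes, which do not start at 0) in each mouse by diet group, with the mean and SD in black. For C8b, the MF mice fall at 10.60 to 11.999 and the CR-MF mice at 11.43 to 12.24, and for C9 and C8a no CR-MF mouse lies at or below a CR mouse.

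C8a, the alpha chain that enters the membrane, also had its highest mean in CR-MF but its lowest in CR, where that of C8b was lowest in MF. It passed no comparison in the fit of all 4 groups. Its levels were 11.41 to 12.05 (median 11.64) in CR-MF, 10.36 to 11.93 (median 11.04) in MF and 10.90 to 11.48 (median 11.08) in C mice. The CR mice had 10.55, 11.10, 11.23, 11.25 and 11.25, all below the lowest CR-MF mouse. CR-MF exceeded CR by 0.60 (standard error 0.20, adjusted p = 0.177) and MF by 0.46 (standard error 0.18, adjusted p = 0.224). The difference from C was 0.55 (standard error 0.18, adjusted p = 0.242 in limma, and 0.0316 in a fit of these groups only). C6, which binds the C5b fragment first, had means of 10.64 ± 0.35 (SD, n = 7) in CR-MF, 9.82 ± 0.79 (n = 7) in MF, 10.002 ± 0.51 (n = 5) in CR and 9.93 ± 0.53 (n = 8) in C. The difference of CR-MF from MF in C6 was 0.82 (standard error 0.28), with an adjusted p of 0.156 (0.0475 with array weights).

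C9, the subunit that lines the pore, differed mostly between CR-MF and CR. CR mice were at 10.67, 10.89, 10.90, 10.92 and 11.20, and the CR-MF mice 11.25 to 11.68 (median 11.49), with no overlap. The difference was 0.57 (standard error 0.15, adjusted p = 0.077). MF mice spanned 10.62 to 11.56 and C mice 10.74 to 11.67, so that both groups overlapped with CR and with CR-MF.

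C8g, the small gamma chain of C8, stood apart from its partners. Its mean was 12.73 in CR-MF, 12.77 in MF, 12.80 in CR and 12.77 in C, and its SD in any group was at most 0.12. The interval for CR-MF minus MF ran from -0.16 to 0.08. Hc, which encodes C5, had means of 12.23 in CR-MF, 12.12 in MF, 12.09 in CR and 12.10 in C. The median difference over the 6 terminal genes was 0.47 for CR-MF minus CR, 0.38 for CR-MF minus MF and 0.41 for CR-MF minus C, and 0.00 for MF minus CR. Over all genes tested these medians lay within 0.01 of 0.

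Among the vitamin K-dependent proteins, Proc rose in CR-MF relative to MF mice. Proc encodes protein C, the protease that inactivates factors Va and VIIIa. The CR-MF mice lay between 11.39 and 11.62 (median 11.61) and the MF mice between 11.14 and 11.47 (median 11.28). All CR-MF mice but BC4_15 were at 11.55 or more, above every MF mouse, and BC4_15, at 11.39, lay within the MF range. The difference was 0.26 (standard error 0.06, 1.20-fold), with an adjusted p of 0.0218 in limma. Within plates it was 0.27, 0.17 and 0.31. Beside Proc and C8b, 1 of the 4 cholangiocyte markers tested, Epcam, fell by 0.78 in CR-MF relative to MF (adjusted p = 0.0216), while the summed intensity of the 4 (of 5 listed) ran from 221 to 345 in CR-MF and from 208 to 364 in MF. Its part in these differences was not tested.

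Levels of Proc in the CR mice were 11.37, 11.44, 11.51, 11.55 and 11.60, between those of the other groups, and the C mice ran from 11.16 to 11.53. MF differed from CR in Proc by -0.19 (standard error 0.07, adjusted p = 0.0881) and CR-MF from C by 0.20 (standard error 0.06, adjusted p = 0.160). The call between CR-MF and MF was lost without C4_7, BC4_9 or BC4_13 (adjusted p up to 0.0561).

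The other vitamin K-dependent members passed no comparison. F7, the factor that starts the extrinsic route with tissue factor, differed by at most 0.04 between any groups in its mean, and by more between mice, from 9.42 to 10.46. F10, which forms the prothrombinase with F5, had its highest mean in CR (11.15 ± 0.12, n = 5) and its lowest in C (10.91 ± 0.15, n = 8), a difference of 0.24 with an adjusted p of 0.201. F9, Pros1 (protein S, the cofactor of protein C) and Proz (protein Z, cofactor of an inhibitor of factor Xa) had group means within 0.19 of each other. F2, prothrombin, lay between 12.47 and 12.77 in all 27 mice.

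F12 fell in MF relative to CR mice. It encodes factor XII, which starts the contact phase and, with prekallikrein, the release of bradykinin from kininogen. CR mice were at 11.58, 11.69, 11.77, 11.77 and 11.83, and the MF mice 11.38 to 11.57 (median 11.51). The groups did not overlap, although the highest MF mouse (C4_1, 11.57) and the lowest CR mouse (B4_5, 11.58) were neighbors. F12 fell by 0.22 (standard error 0.05, 1.17-fold), with an adjusted p of 0.0193 in limma. Of the 30 members, 2 (6.67%) passed between MF and CR, 1 in each direction, beside 5.42% of all genes (2.80% higher and 2.62% lower in MF), so that their share was near the background.

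C mice lay between these groups in F12 (11.47 to 11.65, median 11.60), as did CR-MF mice (11.49 to 11.80, median 11.62), and both overlapped with each. CR exceeded C by 0.16 (adjusted p = 0.107), and CR-MF exceeded MF by 0.15 (adjusted p = 0.151). Within plates, MF minus CR was -0.20, -0.26 and -0.27. In the first plate all CR arrays lay in row F and all MF arrays in row G. Diet and row cannot be told apart there. The call was lost without the CR mice B4_3, B4_7 or B4_13 (adjusted p up to 0.0558) and in a fit of these groups alone (0.0625).

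The remaining contact genes passed no test. F11, factor XI, had the widest spread of the coagulation genes, from 7.81 to 9.53 over the 27 mice, with means of 8.95 ± 0.27 in CR-MF, 8.76 ± 0.54 in MF, 8.69 ± 0.09 in CR and 8.57 ± 0.45 in C. Kng2, a kininogen gene, had means of 12.36 to 12.38 in the 4 groups. Its paralogue Kng1 lay at 12.94 to 13.22.

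**Figure D3:**
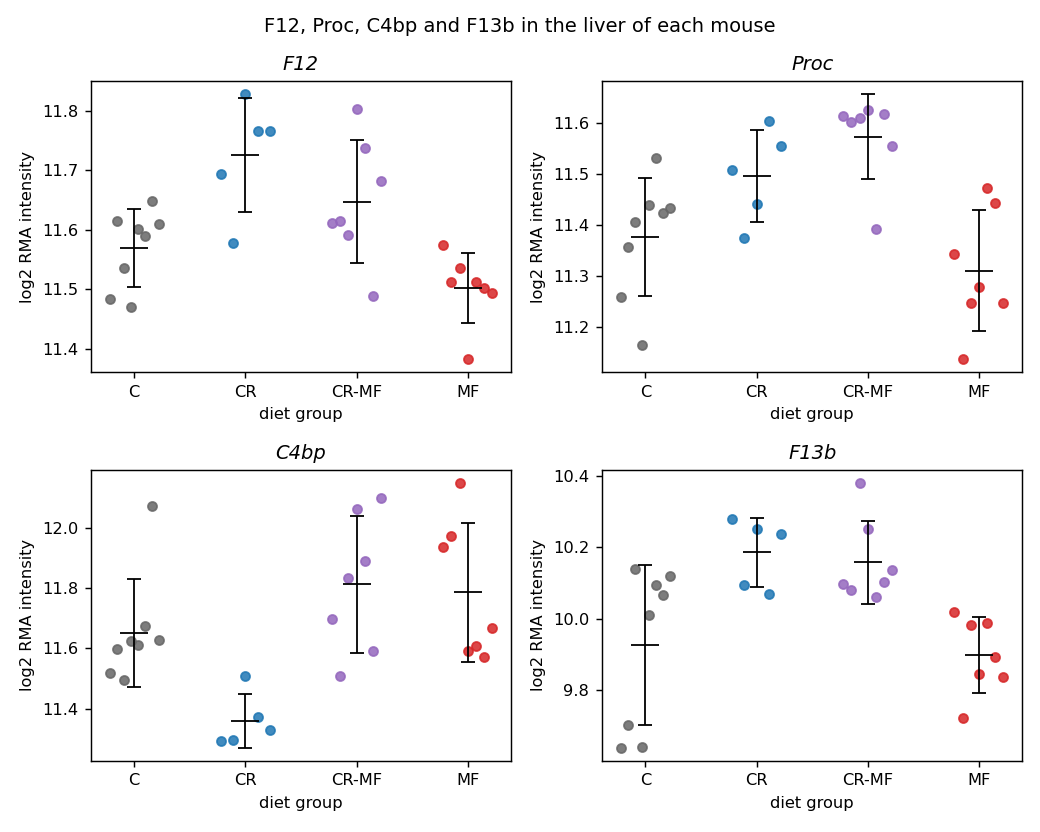
Log2 RMA intensity of F12, Proc, C4bp and F13b (vertical axes, which do not start at 0) in each mouse by diet group, with the mean and SD in black. No MF mouse reaches the CR range for F12 or F13b, and every MF mouse lies above every CR mouse for C4bp.

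Of the cofactor and fibrin genes, F13b came nearest to the threshold. F13b encodes the carrier subunit of factor XIII, the transglutaminase that crosslinks fibrin. The CR mice had 10.07, 10.09, 10.24, 10.25 and 10.28, the CR-MF mice 10.06 to 10.38 (median 10.10), the MF mice 9.72 to 10.02 (median 9.89) and the C mice 9.64 to 10.14 (median 10.04). Every MF mouse lay below every CR and every CR-MF mouse. The difference of MF from CR was -0.29 (standard error 0.09, adjusted p = 0.0553), that of CR-MF from MF 0.26 (standard error 0.08, adjusted p = 0.108) and that of CR from C 0.26 (standard error 0.09, adjusted p = 0.0999). F13b passed between MF and CR with median centring, with a stricter filter and in a fit of these groups alone. Groups without overlap were found for 3 members between MF and CR (C4bp, F12 and F13b; 10% beside 3.79% of all genes), for 4 between CR-MF and CR (C4bp, C8a, C9 and Mbl1; 13.3% beside 1.20%) and for F13b alone between CR-MF and MF (3.33% beside 0.650%).

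The fibrinogen chains moved with each other from mouse to mouse. Fga had means of 11.40 ± 0.35 in CR-MF, 11.31 ± 0.31 in MF, 11.03 ± 0.37 in CR and 11.18 ± 0.21 in C, and the CR-MF mouse BC4_15 was highest at 12.14. No comparison of Fga, Fgb or Fgg passed, and their smallest adjusted p in CR-MF against CR was 0.370, for Fga. Deviations from the group mean correlated between Fgb and Fgg with r = 0.94 (rho = 0.90), between Fga and Fgb with r = 0.81 (rho = 0.80) and between Fga and Fgg with r = 0.81 (rho = 0.80) over 27 mice (permutation test, two-sided, adjusted over 8 pairs, p = 2.67e-05 for each r and at most 3.2e-05 for rho). The raw p of each r was 1e-05, the smallest that 100000 permutations can give. Without the pair of mice farthest from the median these r were 0.92, 0.77 and 0.76.

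C8a and C8b, also chains of one protein, correlated as well (r = 0.78, rho = 0.78, permutation test, p = 2e-05 for r, adjusted p = 3.2e-05), and without the 2 farthest mice r was 0.70. In the 19 mice of the largest plate r was 0.76. By group it was 0.90 in MF, 0.72 in CR-MF, 0.71 in C and 0.22 in CR mice. C8g followed neither, with r = -0.15 for C8a and 0.11 for C8b (permutation test, p = 0.45 and 0.572, adjusted p = 0.514 and 0.572). For Kng1 and Kng2 r was 0.79 (permutation test, adjusted p = 3.2e-05), but these paralogues are similar in sequence and their probes may share signal. The mannose-binding lectins Mbl1 and Mbl2 gave r = -0.38 (permutation test, p = 0.049, adjusted p = 0.0653) and rho = -0.48 (adjusted p = 0.0151), and r was -0.34 (adjusted p = 0.129) without the 2 farthest mice. In the 19 mice of the largest plate the r of these 8 pairs ran from -0.34 to 0.94. Genes that are not partners were not correlated. A shift shared by many members in the same mouse was therefore not set apart from a link between partners.

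**Figure D4:**
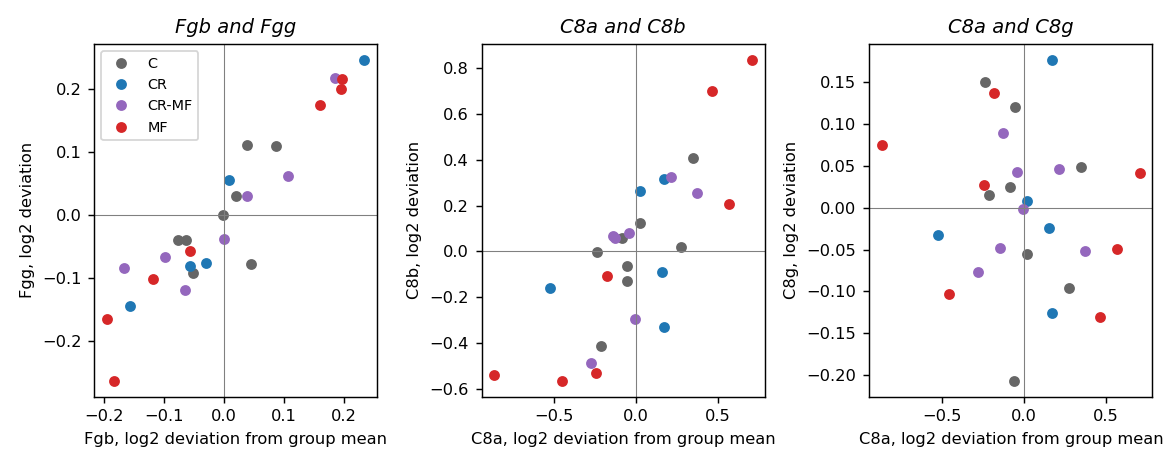
Deviation of each mouse from the mean of its diet group (log2) for Fgb against Fgg, C8a against C8b and C8a against C8g, with 27 mice colored by group. The first and the second pair rise together (r = 0.94 and 0.78), while C8a and C8g do not (r = -0.15).

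C4bp rose in MF relative to CR mice. It encodes the alpha chain of C4b-binding protein, a circulating inhibitor of the classical and lectin routes. The CR mice had 11.29, 11.30, 11.33, 11.37 and 11.51, and the MF mice 11.57 to 12.15 (median 11.67), so that every MF mouse was above every CR mouse. The difference was 0.43 (standard error 0.11, 1.34-fold, adjusted p = 0.0272 in limma). Within plates it was 0.49, 0.20 and 0.34. The first value is also a difference between rows F and G, as for F12. The C mice ran from 11.50 to 12.07 (median 11.62), and 1 of them fell within the CR range.

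CR-MF mice had C4bp levels of 11.51 to 12.10 (median 11.84), close to those of MF. Their difference from CR was 0.45 (standard error 0.11), with an adjusted p of 0.0559, and that from MF was 0.03 (95% interval -0.18 to 0.24). The call between MF and CR was lost without B4_1, B4_3, B4_13, C4_1, C4_7 or C4_9, with an adjusted p of up to 0.0684. Beside F12 and C4bp, some marker genes moved between these groups. Of 10 hepatocyte markers listed, 9 had a value, but only 3 passed the filter and were tested. Among these 3, Tat and Cps1 fell by 0.46 and 0.29 in MF (adjusted p = 0.0150 and 0.0287 in limma). In addition, 2 of the 7 stellate cell markers, Pdgfrb and Lum, rose by 0.65 and 0.85 (adjusted p = 0.0195 and 0.0254). Summed hepatocyte markers ran from 79186 to 84052 in MF and 83148 to 92341 in CR, and summed stellate markers (7 of 7) from 6981 to 9159 and from 6476 to 7903. Of 15 acute-phase genes, Saa2, Orm3 and Lcn2 rose in MF relative to CR, by 2.81, 2.45 and 2.07 (adjusted p = 0.0287, 0.0152 and 0.0209). The part of these genes in the differences of F12 and C4bp was not tested.

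Cfi, the protease that cleaves C3b and C4b, had means of 12.02 in CR-MF, 11.97 in MF, 11.94 in CR and 11.92 in C. Among the lectin pathway genes, Mbl1 had the smallest p. Its levels in CR mice were 9.26, 9.59, 9.79, 9.82 and 9.84, and in CR-MF mice 9.85 to 10.22 (median 9.98). These groups did not overlap, with B4_13 and BC4_15 next to each other at the border. The difference was 0.36 (standard error 0.13, adjusted p = 0.198), and MF differed from CR by 0.35 (adjusted p = 0.0948). Mbl2 had its highest mean in C (9.32 ± 0.28, n = 8) and its lowest in MF (9.05 ± 0.19, n = 7), and Masp1, the protease that travels with both lectins, had means of 11.19 to 11.25.

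C2, which supplies the protease of the classical and lectin C3 convertase, had its highest mean in CR-MF. Its levels were 9.33 to 10.08 (median 9.58) in CR-MF, 9.07 to 9.62 (median 9.31) in MF, 8.91 to 9.65 (median 9.37) in C, and 9.25, 9.29, 9.39, 9.44 and 9.54 in CR. All groups overlapped. CR-MF exceeded MF by 0.37 (standard error 0.11, adjusted p = 0.10) and C by 0.36 (standard error 0.11, adjusted p = 0.174). Cfb, its counterpart in the alternative route and its neighbor on the chromosome, had means of 11.79 to 11.85.

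Serpinf2, the inhibitor of plasmin, ran from 12.36 to 12.81 (median 12.56) in CR-MF, 12.25 to 12.66 (median 12.43) in MF and 12.10 to 12.63 (median 12.36) in C mice, and was 12.28, 12.31, 12.31, 12.45 and 12.50 in the CR mice. CR-MF exceeded C by 0.19 (standard error 0.08, adjusted p = 0.377). Serpind1, heparin cofactor II, had means of 12.15 in CR-MF, 12.14 in CR, 12.03 in MF and 12.02 in C, and its difference of CR-MF from C was 0.13 (adjusted p = 0.399). Serping1, the inhibitor of C1 and of factor XIIa, had means of 12.69 to 12.81. Serpinc1, antithrombin, and Plg, plasminogen, had group means of 12.61 to 12.68 and 12.81 to 12.87. For the 4 genes that the filter removed, the smallest adjusted p in a fit without the filter was 0.393, for Serpinc1 between MF and CR.

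In the comparisons with no member called by limma, CR-MF against CR had 0.600% of all genes called, CR against C 1.57%, CR-MF against C 0.300% and MF against C 0%. The intensity-based moderated statistic of the study's methods also called 0 members in each of these. At an unadjusted p of 0.05, 7 members were higher and 0 lower in CR-MF than in CR (23.3% higher, beside 5.40% higher and 6.90% lower among all genes). Against C, 10 were higher and 0 lower in CR-MF (33.3%, beside 5.52% higher and 5.90% lower), and against MF 8 were higher and 0 lower (26.7%, beside 6.76% higher and 7.99% lower). The list was chosen with earlier results of these data known. These 3 counts share the CR-MF arrays and are not independent of each other. Nor are the members within a count, because many of them moved together in the same mouse. CR against C gave 3 higher (F10, F12 and F13b; 10% beside 9.27%) and 1 lower (C4bp; 3.33% beside 10.5%), MF against C gave only Mbl2 as lower (3.33% beside 1.30%) and 0 higher (beside 2.67%) and MF against CR gave 2 higher (6.67% beside 12.5%) and 3 lower (10% beside 11.2%).

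The CR-MF group had the highest mean for 19 of the 30 genes tested (63.3%, beside 22.7% of all genes), CR for 6, MF for 4 and C for Mbl2 only. Relative to C, 26 of 30 differences of CR-MF were above 0 (86.7%, beside 51.4% of all genes), with a median of 0.11 against 0.00 for all genes. Relative to CR and MF, 22 (73.3%, beside 49.8%) and 23 (76.7%, beside 49.5%) were above 0. Between MF and CR the members were split evenly (15 of 30 above 0, beside 48.6% of all genes). MF mice had the largest SD of the 4 groups for 17 of the 30 genes (56.7%, beside 28.5% of all genes), and the median SD was 0.19 in MF, 0.16 in C, 0.13 in CR and 0.12 in CR-MF (0.18, 0.17, 0.17 and 0.19 over all genes).

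Part of the spread was shared by many members in the same mouse, so the counts of members above are not counts of independent genes. Among MF mice, C4_1 lay above the mean of its group for 28 of the 30 genes and C4_9 for 25, while C4_11 did so for 1, C4_5 for 4 and C4_15 for 5. Among the other groups BC4_13 was above its group mean for 29 genes, A4_9 for 28, B4_5 for 5 and BC4_3 for 4. Over all genes tested, this share lay between 39.3% and 55.8% in each of the 27 mice. C6 had the largest SD within groups of the 34 genes (0.57), followed by F11 (0.40), C8b (0.38) and C8a (0.36), and Serpinc1 the smallest (0.06).

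**Figure D5:**
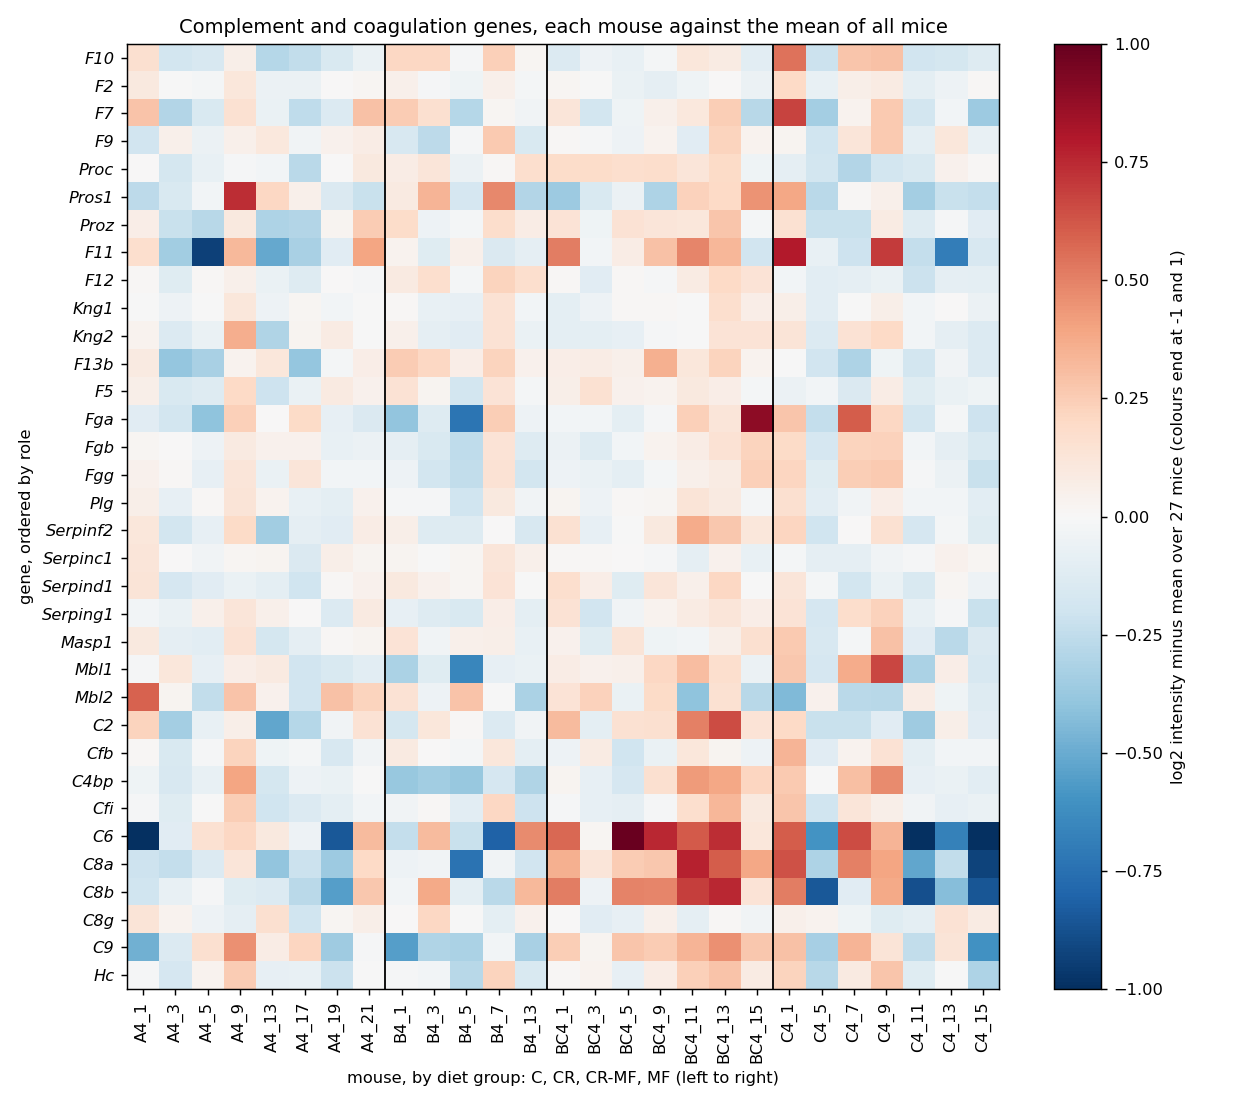
Log2 intensity of the 34 measured genes (rows, ordered by role) in the 27 mice (columns, by diet group), each minus the mean of the gene over all mice, with red for higher and blue for lower. The terminal complement genes near the bottom are mostly red in CR-MF mice, and the MF mice split between red columns such as C4_1 and C4_9 and blue ones such as C4_5, C4_11 and C4_15.

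Genes that act around these factors were examined by list. Of 14 further complement components tested, C4a was higher in CR-MF than in CR (0.78), MF (0.62) and C (0.70), with adjusted p of 0.0354, 0.0442 and 0.0444 in limma. Its means were 9.18 ± 0.34 in CR-MF, 8.56 ± 0.37 in MF, 8.40 ± 0.32 in CR and 8.48 ± 0.23 in C. C4a and its copy C4b are nearly identical in sequence, so the signal cannot be given to one of them with certainty. C1qb, a chain of the C1q recognition molecule that macrophages make, rose by 0.80 in MF relative to CR (adjusted p = 0.0450), and Colec11, a collectin of the lectin pathway, fell by 0.51 in CR-MF relative to MF (adjusted p = 0.0338).

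Among 14 complement regulators and receptors, Susd4, a membrane-bound complement inhibitor, was higher in both groups with a history of restriction. Its means were 9.35 ± 0.58 in CR-MF, 9.00 ± 0.59 in CR, 7.28 ± 0.66 in MF and 7.56 ± 0.75 in C, and no CR-MF mouse overlapped with an MF mouse. Adjusted p was 0.00162 for CR-MF against MF, 0.00652 for CR-MF against C, 0.00848 for MF against CR and 0.0332 for CR against C. C3ar1, the receptor for C3a on myeloid cells, was lower in CR (7.30 ± 0.12) than in C (8.54 ± 0.53, adjusted p = 0.0253) and in MF (8.32 ± 0.33, adjusted p = 0.0347). No other gene of that list passed in any comparison.

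Of 19 further coagulation genes, Gas6, a vitamin K-dependent ligand of TAM receptors related to protein S, rose by 1.14 in MF relative to CR (adjusted p = 0.00848) and fell by 0.95 in CR-MF relative to MF (adjusted p = 0.0216). Vwf, the carrier of factor VIII that endothelium makes, rose by 0.66 in MF relative to CR (adjusted p = 0.0340), and Lman1, the cargo receptor for factors V and VIII, fell by 0.21 (adjusted p = 0.0284). Of 9 fibrinolysis genes and serpins, S100a10 and Plaur, which bind plasminogen or its activator at cell surfaces, rose by 0.70 and 0.64 between the same groups (adjusted p = 0.0209 and 0.0373). None of 6 genes of vitamin K carboxylation and none of 19 liver transcription factors and cytokine receptors, among them Hnf4a, Cebpa and Stat3, passed in any of the 6 comparisons by limma.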

How the data were processed

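Liver RNA was hybridized by the authors to Affymetrix Mouse Gene 1.1 ST arrays, and the deposited log2 values were background-corrected, normalized and summarised per transcript cluster with Robust Multiarray Average. One single-symbol cluster per gene (highest mean) was used. The study's filter (intensity over 20 on 5 or more arrays, interquartile range over 0.1) left 13993 of 18820 genes, over which p-values were adjusted after Benjamini and Hochberg.

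All 4 groups (27 arrays) entered 1 linear model in limma 3.58.1 under R 4.3.3, moderated by eBayes with trend, which left 23 residual degrees of freedom for 6 comparisons. A member was called at an adjusted p under 0.05. The fits were tested on simulated data. Array medians lay between 5.38 and 5.48 and correlations between arrays between 0.975 and 0.991; the number of arrays limits the precision.

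Each called member is described, and in each role group without one, the member with the smallest p; of the other pathway genes, up to 3 called per list. The members and lists were chosen with earlier results of these data known. Plate and well codes were read from the array names. Alternatives tried were other normalizations, filters, moderation, array weights, blocks, fits of 2 groups and leaving out mice. Promoters and motifs came from RefSeq (GRCm38.p6). Correlations used Python 3.11.15 and scipy 1.17.1.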

Additional observations from a re-analysis of the deposited data

Results flagged for a closer look

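In 9 of 136 combinations of gene and diet group, 1 mouse lay far from the rest of its group (its gap to the nearest mouse over the range of the group exceeded Dixon's 95% critical value), and chance alone gives such a mouse in about 1 of 20 groups. The C mouse A4_9 was the highest of its group for 5 genes, with log2 levels of 9.94 for Pros1, 13.16 for Kng1, 12.04 for Cfb, 12.21 for Cfi and 12.07 for C4bp. The nearest C mice were at 9.40, 13.07, 11.83, 11.96 and 11.67. The CR-MF mouse BC4_15 was the highest of its group for Fga (12.14, next 11.48) and the lowest for Proc (11.39, next 11.55). The MF mouse C4_11 was the lowest of its group for F12 (11.38, next 11.49), and the CR mouse B4_5 for C8a (10.55, next 11.10). The title of the array of A4_9 carries an added suffix whose meaning is not given in the sources used here.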

How the results depend on the processing

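The counts of called members (2 for MF against CR, 2 for CR-MF against MF, 0 for the others) moved under these settings. For MF against CR, 3 were called with median centring and with the stricter filter (F13b added in both), and 0 were called on plate G150 alone and when the well row was a block. For CR-MF against CR, 1 was called with quantile normalization and the stricter filter (C4bp in both), 1 in a fit of these groups only (C9) and 2 with array weights (C9 and C4bp). For CR-MF against MF, 3 were called with array weights (C6 added), 1 was called with no filter and with the plate as a block (Proc in both; C8b had an adjusted p of 0.0510 in each), and 0 on plate G150 alone and in a fit of these groups only. Between CR and C, 1 was called with array weights (F12). Between CR-MF and C, 2 were called with array weights (Proc and C2) and 1 in a fit of these groups only (C8a). Leaving out 1 mouse at a time gave 0 to 4 calls for MF against CR (4 without C4_13, with F13b and Proc added), 0 to 1 for CR-MF against CR (C4bp without BC4_3 or BC4_5), 0 to 2 for CR-MF against MF, and 0 in the other comparisons. The cause of these moves was not tested. Plate G150 alone and the fits of single pairs of groups hold fewer arrays, but calls were also lost in other fits. With the well row as a block, MF minus CR was -0.26 for F12 and 0.44 for C4bp (adjusted p = 0.184 and 0.201 in limma). In that fit only the CR mice B4_3 and B4_13 shared a row with MF mice. No called difference changed its direction under any setting, and the range over all settings was -0.26 to -0.20 for F12, 0.36 to 0.49 for C4bp, 0.23 to 0.30 for Proc and 0.58 to 0.89 for C8b. The largest adjusted p over these settings in limma was 0.184 for F12, 0.201 for C4bp, 0.0921 for Proc and 0.1755 for C8b. Dropping BC4_11 and BC4_15 from the CR-MF group, an alternative chosen after seeing the data, left Proc and C8b called against MF and 0 members against CR or C. The correlations of the 8 pairs kept their side of the threshold among deviations from group and plate and without the 2 farthest mice.

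With the animal number as a replicate block, 0 members were called for MF against CR and 0 for CR-MF against MF. The number is shared across groups in the mouse IDs, but the labels give it no meaning. Deviations of same-numbered mice correlated at -0.26 to 0.36. They were above 0.1 in 3 of 4 pairs for MF against CR and in 3 of 6 for CR-MF against MF. Whether these mice share more than a number was not tested.

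Small groups, above all the 5 CR mice, limit the precision, and the 30 genes tested do not include C3, Cpb2, Klkb1 or Masp2.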

Other observations

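Fga has a second single-symbol transcript cluster, with a mean of 9.18 against 11.24 for the cluster used. Its differences had the same direction in all 6 comparisons and were 0.55 for CR-MF minus CR and 0.36 for MF minus CR, against 0.37 and 0.28 for the cluster used, and none passed an adjusted p of 0.05 in limma (0.442 and 0.468 for these comparisons).

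Markers of blood and immune cells varied widely between livers. The summed intensity of 6 T and NK cell markers ran from 256 to 327 in the 5 CR mice and from 221 to 1274 in the 7 MF mice. In CR-MF and C mice it ran from 229 to 1375 and from 220 to 834. That of 4 platelet markers (of 6 listed) ran from 227 to 319 in CR and from 240 to 2160 in MF mice. In CR-MF and C mice it ran from 258 to 1055 and from 254 to 1395. The summed intensity of 7 Kupffer cell markers ran from 3733 to 5393 in CR and from 4116 to 13482 in C mice. In CR-MF and MF mice it ran from 3724 to 12576 and from 4244.5 to 10158.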
